A study of Mus musculus with 165 samples.

Results

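The first hour of 4-hydroxy-tamoxifen (OHT) in IL3 was covered by 6 libraries, 3.64% of the libraries and 2 of the 56 conditions of the series: 3 libraries were of undifferentiated PUER cells at 0h and 3 of cells 1h after OHT was added to IL3 medium. They were chosen by their titles, and no measured value entered the choice. PUER is one IL3-dependent mouse progenitor line that lacks endogenous PU.1 (Spi1-/-) and carries a PU.1 protein joined to the hormone-binding part of the estrogen receptor. All 6 libraries therefore shared the deletion and the fusion and differed in OHT, at 0 nM or 200 nM. No library of cells given vehicle alone, or kept for the same hour without OHT, was analysed here, so OHT, vehicle and handling cannot be told apart. The labels assign the undifferentiated libraries both to the start of the IL3 series and to the time before 48 hours of GCSF pre-treatment, and cells bound for IL3 were plated when that pre-treatment began. Time in the plate and OHT therefore cannot be told apart either. Per the study the cells of each time point were seeded in a plate of their own, so plate and OHT cannot be told apart. For comparison, 6 other libraries held the first hour of 100 nM OHT in cells kept for 48 hours in 10 ng/ml GCSF in place of IL3; the titles of its 0h libraries name OHT, but their other labels place them before it.

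PU.1, encoded by Spi1, is an ETS-family factor that opens and activates the enhancers of macrophage genes, and the fusion moves to its targets when OHT binds. Immediate-early genes are those that cells transcribe within minutes of a signal without making new protein first. They encode the AP-1 factors, which pair as FOS and JUN proteins, and the EGR zinc-finger factors with their NAB corepressors. They also encode inhibitors such as the dual-specificity phosphatases, some of which switch the ERK kinases off again. In macrophage differentiation EGR factors and NAB2 act together to hold back genes of the neutrophil program.

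Values are read counts that the authors divided by a size factor for each library, called normalized counts here. The 6 libraries held 17754586 to 25259524 reads, and 3 reads in a library corresponded to 2.93 to 3.93 normalized counts. A gene was called when its adjusted p was under 0.05 and its log2 fold change was beyond 0.58 in size, in limma fitted on log2 of the normalized count plus 1. Fold changes are on that scale, which understates the change of low genes. The SE and p of a gene use 1 spread, shared by the libraries of all 54 conditions fitted. They therefore do not describe the spread of the 6 libraries alone. RNA came from 3 replicate cultures a group, grown in the plate of their time point, all of one line.

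Of 17414 genes tested, 489 were higher (2.81%) and 281 lower (1.61%) after 1h of OHT. How far limma and the count tests shared calls depended on the level of the gene. Among the 10762 genes with a mean of at least 50 over the 6 libraries, 394 were called, 230 of them higher (2.14%) and the others lower (1.52%), and 387 of these calls were also made by edgeR on the whole reads recovered from the values. Among the 4636 genes with a mean under 10, 254 were called, of which 44 were also called by edgeR and 2 by DESeq2. Calls of low genes are for that reason counted apart below, and the split was added after the values were seen. The median log2 fold change of all genes tested was 0.03. The gene lists below and their members were chosen with earlier results of these data known. Their shares beside those of all genes are therefore descriptions and not tests.

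**Figure D1:**
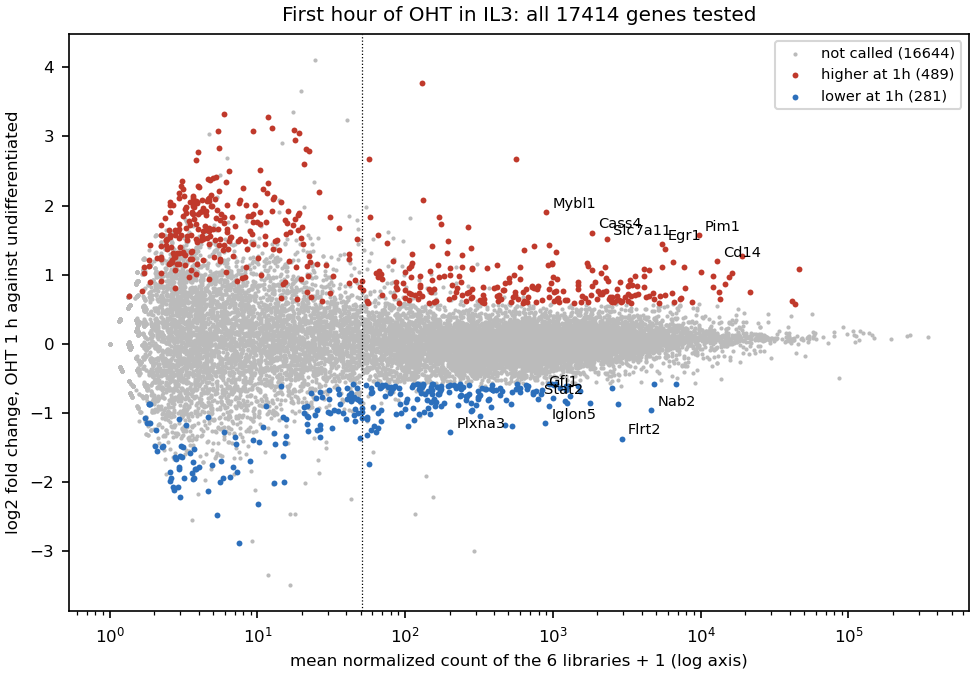
Each point is 1 of the 17414 genes tested, with the mean normalized count of the 6 libraries plus 1 on a log axis and the log2 fold change (OHT 1h against undifferentiated) on the vertical axis. Red marks the 489 genes called higher and blue the 281 called lower; the dotted line stands at a mean of 50, left of which edgeR shared a smaller part of the calls.

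The fusion itself gave little change in RNA. The undifferentiated libraries held 10268, 9905 and 9799 normalized counts of Spi1 and the OHT libraries 8887, 8823 and 9139 (log2 fold change -0.16, SE 0.05, adjusted p = 0.01). For Esr1, the estrogen receptor gene, they held 5034, 5141 and 5089.6 and then 4762, 4727 and 4745 (log2 fold change -0.10, SE 0.06, adjusted p = 0.24). The groups did not overlap for either gene, but neither passed the fold threshold. Reads of the fusion and of any endogenous transcript of these genes share a row, and the activity of the protein is not measured by RNA. Of 10 tested genes of a list of estrogen receptor genes and targets, 0 were called in either direction by limma or by edgeR, and 3 had an unadjusted p under 0.05.

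To show what stands just upstream of the responding genes, 4 promoters are printed from RefSeq (GRCm38.p6), each 300 bases on its gene's strand, from 250 bases before the start site. They were picked among the list members that rose because they hold a CArG box, the site of serum response factor, or a cAMP response element (TGACGTCA). Capitals mark the match that picked the window. The CArG box was present in 1.30% of the 14706 windows of tested genes and the cAMP response element in 2.80%, with both strands searched. Windows were at hand for 66.9% of the genes tested, 67.9% of those that rose and 70.8% of those that fell, too few in each case, so a comparison of motif shares was void. As a description of the windows at hand, the CArG box stood in 3.70% of those of risers and 0% of those of fallers, and the cAMP response element in 1.62% and 2.76%. These shares count windows and not genes. The 16 riser windows with a CArG box, 4 of them of Egr2, belonged to 11 genes. By gene the shares with a CArG box were 3.31% of risers and 1.58% of all tested genes, among those with a window. Other motifs were searched too. The ETS site of PU.1 stood in 3.23% of windows of risers, 2.76% of fallers and 3.14% of all tested genes. For the NF-kB site the shares were 12.7%, 10.2% and 10.2%, and for the EGR site 1.62%, 1.57% and 1.09%. The Egr2 window lies at chr10:67537316-67537615 (plus strand) and is 1 of 5 windows of this gene, 4 of which hold a CArG box. Zfp36 lies at chr7:28379179-28379478 (minus strand), Dusp5 at chr19:53528895-53529194 (plus strand, 2 CArG boxes side by side) and Dusp1 at chr17:26508423-26508722 (minus strand, with the cAMP response element). The Dusp5 window also holds a match to the ETS site of PU.1, which is not in capitals. A match is a description of letters and not of binding.
Egr2: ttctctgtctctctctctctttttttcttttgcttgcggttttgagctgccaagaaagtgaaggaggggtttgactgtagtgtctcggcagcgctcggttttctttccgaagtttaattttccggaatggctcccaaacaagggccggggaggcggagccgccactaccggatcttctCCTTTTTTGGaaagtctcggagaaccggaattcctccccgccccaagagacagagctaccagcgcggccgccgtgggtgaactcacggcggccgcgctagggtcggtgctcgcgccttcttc
Zfp36: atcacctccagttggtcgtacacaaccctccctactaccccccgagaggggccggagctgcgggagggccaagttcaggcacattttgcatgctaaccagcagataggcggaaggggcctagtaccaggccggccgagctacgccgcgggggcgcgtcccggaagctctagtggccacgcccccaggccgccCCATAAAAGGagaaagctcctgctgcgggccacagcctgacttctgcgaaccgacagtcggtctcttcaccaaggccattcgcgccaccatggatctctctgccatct
Dusp5: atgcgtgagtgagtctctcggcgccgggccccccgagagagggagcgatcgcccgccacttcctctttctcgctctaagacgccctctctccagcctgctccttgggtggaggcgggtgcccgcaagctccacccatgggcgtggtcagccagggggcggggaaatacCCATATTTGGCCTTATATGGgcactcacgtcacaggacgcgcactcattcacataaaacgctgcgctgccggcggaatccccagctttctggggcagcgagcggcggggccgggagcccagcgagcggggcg
Dusp1: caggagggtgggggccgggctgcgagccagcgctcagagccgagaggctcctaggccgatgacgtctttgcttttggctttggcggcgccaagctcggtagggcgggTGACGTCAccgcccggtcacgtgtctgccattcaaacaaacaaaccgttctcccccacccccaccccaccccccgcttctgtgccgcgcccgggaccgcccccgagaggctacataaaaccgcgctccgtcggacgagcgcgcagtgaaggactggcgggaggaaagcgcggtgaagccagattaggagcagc

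Egr1 and Egr2 rose in this hour, while their corepressor gene Nab2 fell. Egr1, a zinc-finger activator, stood at 3007, 2852 and 2972 normalized counts in the undifferentiated libraries and at 7665, 8367 and 7879.6 after OHT (log2 fold change 1.44, SE 0.18, adjusted p = 6.5e-11). Egr2, a related factor needed for macrophage genes, went from 145.2, 169.8 and 146.5 to 427, 417 and 367 (log2 fold change 1.39, SE 0.22, adjusted p = 2.2e-07). In both cases every OHT library lay above every undifferentiated one. Nab2, the corepressor that binds EGR proteins, moved the other way, from 6152, 6074 and 6034 to 3335, 2929 and 3079 (log2 fold change -0.97, SE 0.12, adjusted p = 4.1e-11), again with no overlap. Egr3 held 816, 691 and 763 and then 1009, 1013 and 954 and was not called (log2 fold change 0.39, SE 0.57, adjusted p = 0.72). Its groups did not overlap, and its SE is that of all conditions fitted. Egr4 was called at counts near the floor, with 0, 1.02 and 1.18 before and 5.49, 4.24 and 0.976 after, and edgeR did not call it, so no fold is given. Of the 6 tested members of the EGR and NAB list, 3 were higher and 1 lower, and 2 higher and 1 lower at a mean of at least 50. Among all genes tested 2.81% were higher and 1.61% lower.

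Most AP-1 subunits rose, with 8 of 13 tested members higher and 0 lower against 2.81% and 1.61% of all genes, and a median log2 fold change over the list of 0.63. Fos counts were 614, 572 and 622 before and 1254, 1398 and 1427 after (log2 fold change 1.17, SE 0.12, adjusted p = 1.1e-14). Its partner Jun went from 5007, 4595 and 5107 to 10310.2, 10766 and 10562 (log2 fold change 1.11, SE 0.09, adjusted p = 8.1e-21). Maff, a small MAF protein, rose from 590.1, 562 and 583 to 1222, 1279 and 1325 (log2 fold change 1.14, SE 0.18, adjusted p = 2.4e-07), and Fosl1 from 2083, 1949.5 and 1947 to 3555, 3763 and 3749 (log2 fold change 0.89, SE 0.22, adjusted p = 0.001). Fosb and Atf3, already abundant in undifferentiated cells, rose by 0.86 and 0.63 on the log2 scale. The remaining members called were Mafk and Jund, and edgeR called all of these but Jund, 7 members.

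Among the lists, which were chosen with earlier results of these data known, that of ERK feedback inhibitors had the highest share of calls. Of its 16 tested members 11 were higher and 1 was lower. Among all genes tested the shares were 2.81% and 1.61%. Whether each member acts on ERK in these cells was not tested. Dusp5, a phosphatase that holds ERK in the nucleus, went from 4203, 3787 and 3904 to 8701, 9241 and 8978 (log2 fold change 1.18, SE 0.08, adjusted p = 1.8e-23). Dusp1 rose from 2834, 2536 and 2925 to 5385, 5582 and 5428 (log2 fold change 0.99, SE 0.14, adjusted p = 3.1e-09). Dusp14 rose from 132.2, 140.1 and 108.7 to 285, 237 and 296 (log2 fold change 1.10, SE 0.40, adjusted p = 0.038). Its groups did not overlap, and the wider SE is that of all conditions fitted and not of these 6 libraries. Dusp14 lost its call when any of the 6 libraries was left out, although edgeR called it. Dusp4, Dusp10, the Spred proteins 1, 2 and 3 and the Sprouty genes Spry1 and Spry2 were also called higher. Errfi1 was called at counts near the floor, with 0, 0 and 0 and then 5.49, 0 and 1.95, and edgeR did not call it. The member that fell was Dusp7, a cytoplasmic ERK phosphatase, with 3568, 3432 and 3740.1 before and 1958, 1950.2 and 1945 after (log2 fold change -0.87, SE 0.10, adjusted p = 4.9e-12). By contrast, of 27 tested RAS and ERK signalling proteins themselves, 0 were called by limma and 0 by edgeR (12 had an unadjusted p under 0.05), and their log2 fold changes ranged from -0.15 to 0.48.

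Other immediate-early genes were higher in 14 of 35 tested members and lower in 0, against 2.81% and 1.61% of all genes tested. Plk3, a stress-responsive kinase, had the largest change, from 83.7, 81.8 and 75.6 to 251, 265 and 293 (log2 fold change 1.73, SE 0.26, adjusted p = 3.0e-08). Zfp36, which speeds the decay of cytokine mRNAs, went from 377, 354 and 397 to 888, 779 and 779 (log2 fold change 1.11, SE 0.08, adjusted p = 1.2e-22). Sgk1, a kinase, rose from 3473, 3532 and 3438 to 7609.7, 7666 and 7198 (log2 fold change 1.11, SE 0.08, adjusted p = 7.9e-25), and Phlda1 from 3006, 2803 and 2919 to 6054, 6126 and 6099 (log2 fold change 1.07, SE 0.10, adjusted p = 8.6e-17). In each of these genes the groups were clearly apart. Csrnp1, Btg1, Arid5a, Klf6, Ppp1r15a, Gadd45a, Trib1, Ier5, Sik1 and Mcl1 were the other members called. For the cytoskeletal targets of serum response factor, of 17 tested genes of the SRF and actin list, 0 were called by limma and 0 by edgeR, 9 had an unadjusted p under 0.05, and their median log2 fold change was 0.10.

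**Figure D2:**
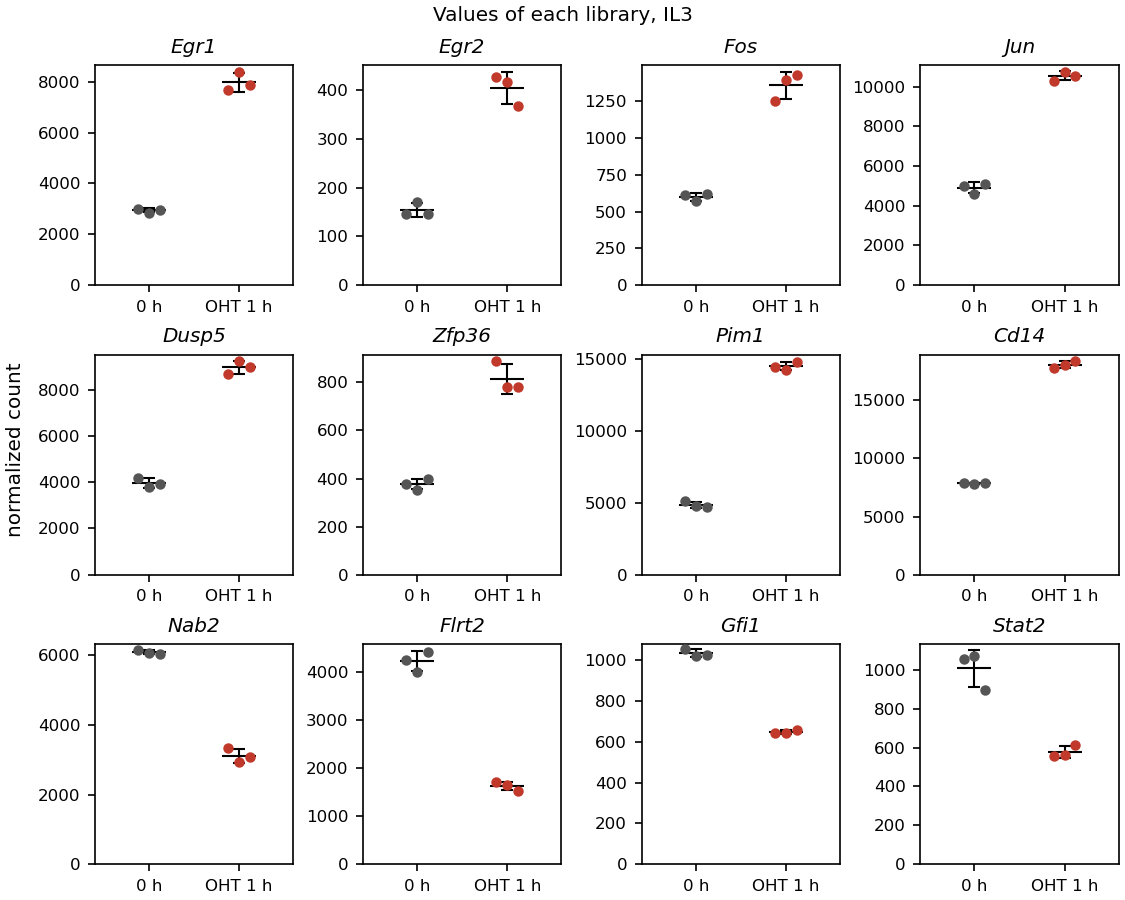
Each panel plots 1 gene, with 1 point for each library (normalized count, axis from 0), a bar at the mean and whiskers of 1 SD, for 3 undifferentiated libraries (0 h, grey) and 3 libraries after 1h of OHT (red). In Egr1, Egr2, Fos, Jun, Dusp5, Zfp36, Pim1 and Cd14 all red points lie above the grey ones, and in Nab2, Flrt2, Gfi1 and Stat2 all lie under them.

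Cytokine, NF-kB and STAT target lists each held a smaller set of risers and no faller, where 2.81% of all genes tested were higher and 1.61% lower. Among cytokines, chemokines and related enzymes 5 of 18 tested members were higher. Ptgs2, the inducible cyclooxygenase, went from 547, 496 and 479.8 to 1408, 1442 and 1242 (log2 fold change 1.42, SE 0.19, adjusted p = 8.7e-10), and Cxcl2, a neutrophil chemokine, from 338, 344 and 383 to 585, 725 and 663 (log2 fold change 0.89, SE 0.17, adjusted p = 3.1e-05). Il1b was low throughout, with 5.23, 4.09 and 4.73 before and 39.5, 40.2 and 35.1 after (log2 fold change 2.79, SE 0.63, adjusted p = 3.7e-04). Cxcl1, also low, had overlapping groups and was called by limma and not by edgeR, with 11.8, 1.02 and 2.36 and then 13.2, 6.35 and 15.6. Ccl3, a macrophage chemokine, was far more abundant, with 2678, 2546 and 2448 and then 3896, 3829.5 and 3989.6 (log2 fold change 0.61, SE 0.09, adjusted p = 7.4e-08). In the NF-kB list 3 of 16 were higher, namely Rel (146.5, 139.1 and 116.99 to 276, 263 and 266), Tnfaip3 (181.9, 173.9 and 146.5 to 288, 309 and 338) and Nfkbiz (809.9, 769 and 775 to 1295, 1390.2 and 1296). Nfkbia, the inhibitor that NF-kB itself induces, held 6116, 6341 and 6429.7 and then 6580.0, 6551 and 6761 and was not called (log2 fold change 0.08, SE 0.07, adjusted p = 0.51).

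Pim1, a survival kinase that STAT5 induces downstream of the IL3 receptor, showed one of the clearest rises of abundant genes, from 5102, 4772 and 4710.3 to 14466, 14208 and 14784 (log2 fold change 1.58, SE 0.08, adjusted p = 1.9e-35). Socs1, an inhibitor of JAK kinases, went from 543, 509 and 499.9 to 909, 918 and 920.3, and Csf2rb2, a signalling subunit of the IL3 receptor, from 2648, 2617 and 2549 to 4095, 4158 and 4304 (log2 fold change 0.68, SE 0.05, adjusted p = 4.2e-22). Mcl1, an anti-apoptotic BCL2 relative, rose from 32579, 31354 and 35348 to 50475, 53123 and 48004 (log2 fold change 0.61, SE 0.08, adjusted p = 2.4e-09). Its change lay close to the threshold, and leaving out replicate 2 of either group took it under 0.58. These 4 genes were the members called of 18 tested STAT targets, where 2.81% of all genes tested were higher.

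Of 38 tested PU.1 target genes of myeloid cells, 3 were higher and 2 lower, shares of 7.89% and 5.26%, and at a mean of at least 50 the counts were 3 and 0 of 24. Of all genes tested 2.81% were higher and 1.61% lower, and 2.14% and 1.52% at that level. Cd14, the lipopolysaccharide co-receptor of monocytes, went from 7859, 7810.3 and 7915 to 17799, 18029.6 and 18379.5 (log2 fold change 1.20, SE 0.06, adjusted p = 2.5e-37). Cx3cr1, the fractalkine receptor, rose from 61.5, 60.3 and 63.8 to 115.3, 99.5 and 116.1 (log2 fold change 0.82, SE 0.07, adjusted p = 3.2e-18), and Mpeg1, a pore-forming protein of macrophages, from 289, 296 and 320.2 to 540.1, 524 and 529.9 (log2 fold change 0.82, SE 0.11, adjusted p = 5.6e-09). The OHT libraries were above all undifferentiated ones in these 3 genes. Csf1r, the receptor of the macrophage growth factor, was at 10.5, 7.16 and 8.27 and then 2.2, 1.06 and 6.83; limma called it lower at these few counts and edgeR did not. The other member called lower, Ncf4, a subunit of the NADPH oxidase, had overlapping groups (9.16, 18.4 and 22.5 and then 12.1, 7.41 and 10.7) and was not called by edgeR. Of the 38 genes that the study names as markers or factors of progenitors, neutrophils and macrophages, 34 were tested. Egr1, Egr2 and Cx3cr1 were higher, and Nab2, Gfi1 and Csf1r lower. Levels among them ranged widely: the mean ± SD of Elane, neutrophil elastase, was 108129 ± 768 before and 116473 ± 1618 after (n = 3 each), and Irf8 held 2.62, 6.14 and 7.09 and then 5.49, 5.29 and 4.88.

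Among the 21 myeloid transcription factors at a mean of at least 50, 2 fell and 0 rose, where 1.52% of all genes at that level fell. Gfi1, a repressor that favours neutrophils over macrophages, went from 1057, 1019 and 1027 to 642, 645 and 657 (log2 fold change -0.67, SE 0.06, adjusted p = 9.8e-18). Irf1, an interferon-response activator, fell from 279, 285 and 269 to 211.9, 154.6 and 194.2 (log2 fold change -0.58, SE 0.08, adjusted p = 4.9e-10) and lost its call without replicate 1 or 2 of the undifferentiated group, without replicate 2 of the OHT group, at a pseudocount of 5 and in DESeq2. Runx3 was called higher near the floor, with 0, 0 and 1.18 and then 6.59, 5.29 and 2.93, and not by edgeR. In the progenitor list 1 of 16 was called, and it was higher, as were 2.81% of all genes tested. This was Lyl1, a basic helix-loop-helix factor of stem cells (149.2, 143.2 and 168.99 to 288, 282 and 345, log2 fold change 0.98, SE 0.09, adjusted p = 1.2e-16). Sox4 was higher in every OHT library but under the fold threshold (7598, 7212 and 8489 and then 11166, 11654 and 10524, log2 fold change 0.52, SE 0.11, adjusted p = 7.2e-05), and Kit, the stem cell factor receptor, held 4186, 3995 and 3978 and then 3768, 3779.8 and 3727. Of 15 tested interferon-stimulated genes, 2 were lower, where 1.61% of all genes tested were. Both encode parts of the complex that carries the interferon signal, and the other 13 members were not called. Stat2 went from 1057, 1069 and 897 to 558, 562 and 614 (log2 fold change -0.80, SE 0.07, adjusted p = 1.9e-18) and Irf9 from 340.2, 360.0 and 306 to 192.1, 193.8 and 219.6 (log2 fold change -0.73, SE 0.11, adjusted p = 4.5e-08).

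Glucocorticoid receptor targets were higher in 5 of 10 tested members, though 2 of the list's genes, Sgk1 and Dusp1, are also in the lists above. Beside this list and those that follow in this paragraph, 2.81% of all genes tested were higher. Klf9, a Kruppel-like repressor, went from 5570.1, 5246 and 6100.0 to 9193, 8994 and 8189 (log2 fold change 0.64, SE 0.07, adjusted p = 9.0e-14). Per1, a clock repressor, went from 413, 403 and 389 to 1018, 1079.9 and 1127 (log2 fold change 1.42, SE 0.16, adjusted p = 4.7e-12), and Mt2, a metallothionein, from 1677, 1673 and 1709 to 2888, 2848 and 2843 (log2 fold change 0.76, SE 0.13, adjusted p = 2.7e-06). In the ATF4 list the cystine transporter gene Slc7a11 was the 1 member of 14 called, at 1132, 1230.5 and 1219.5 and then 3629, 3456 and 3161 (log2 fold change 1.51, SE 0.21, adjusted p = 7.2e-09). Tgif1, a corepressor of TGF-beta signalling, was the 1 of 20 in its list (2048, 1985 and 1949.8 to 2987, 2940.2 and 3157) and lost its call without replicate 3 of the OHT group. Of 11 Notch pathway genes 2 were called, Hes6 (516, 510.4 and 481 to 755, 720.0 and 829.5), which lost its call without replicate 3 of either group, and, near the floor and not in edgeR, Dll1.

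No gene was called by limma in the lists of heat shock genes (13 tested), hypoxia response (17), p53 targets (12), cholesterol synthesis and uptake (22) or the cell cycle (18). edgeR called 1 gene higher in the heat shock list and 1 in the hypoxia list, and 0 in the other 3, and 4, 5, 3, 7 and 3 genes of the 5 lists had an unadjusted p under 0.05. Their median log2 fold changes were -0.10, 0.14, 0.06, -0.02 and -0.01. Markers of other blood and tissue cells gave 0 calls in either tool, with an unadjusted p under 0.05 for 1 mast cell marker and 2 stromal and endothelial ones. The summed normalized count of the 3 tested erythroid markers was 43.7 to 49.7 in the undifferentiated libraries and 54.9 to 61.5 after OHT, that of the 4 lymphocyte markers 28.6 to 41.9 and then 46.1 to 55.6, and that of the 3 mast cell and basophil markers 217.4 to 233.2 and then 205.4 to 236.2. The 5 megakaryocyte markers summed to 1705 to 1808 and then 1899 to 2015, and the 7 stromal and endothelial ones to 15068 to 15785 and then 15984 to 17075. Their part in the results above was not tested.

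**Figure D3:**
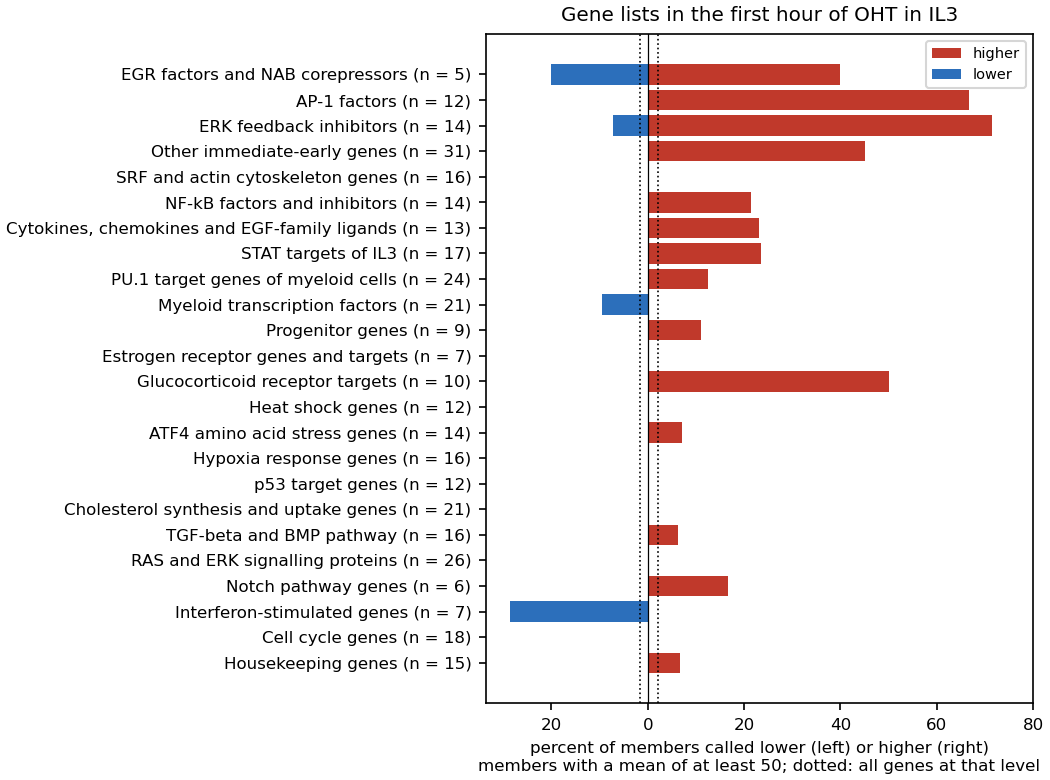
Bars give, for each gene list with at least 5 members at a mean of 50 or more over the 6 libraries (n in brackets), the percent of members called higher (red, right) or lower (blue, left) after 1h of OHT in IL3. The dotted lines mark all genes at that level, 2.14% higher and 1.52% lower. The lists of ERK feedback inhibitors, AP-1 factors and glucocorticoid receptor targets reach furthest to the right. Lists and members were chosen with earlier results of these data known.

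Among all genes, the largest rises at a mean of at least 50 in the higher group, with no overlap between groups, were led by Hao1, a peroxisomal oxidase gene usually found in liver, and Apol8. Hao1 went from 7.85, 28.6 and 11.8 to 87.8, 113.3 and 84.9 (log2 fold change 2.67, SE 0.62, adjusted p = 4.9e-04), and Apol8 from 147.9, 158.5 and 150.1 to 927, 974 and 1025 (log2 fold change 2.67, SE 0.56, adjusted p = 9.4e-05). Mybl1, a MYB-family factor, rose from 369, 352 and 422 to 1502, 1526 and 1249 (log2 fold change 1.90, SE 0.12, adjusted p = 3.4e-26), and Cass4, a focal adhesion scaffold, from 882, 978 and 857 to 2646, 2718 and 2915 (log2 fold change 1.61, SE 0.07, adjusted p = 1.2e-37). Pde4b, a phosphodiesterase that breaks down cAMP, went from 130.8, 140.1 and 108.7 to 391, 424 and 409 (log2 fold change 1.69, SE 0.14, adjusted p = 3.1e-20). The other genes that the same rule named were Gm8818, Hdgfl3, Dpep2nb, Plk3, Ampd1, Gm17083, Pim1, Slc7a11, Plet1 and Mdk, with log2 fold changes from 1.49 in Mdk to 2.08 in Gm8818. Dpep2nb lost its call when any of the 6 libraries was left out, Ampd1 in 3 of the 6 cases and Plet1 in 1, and edgeR called Dpep2nb and Ampd1. Gm45140, picked after its values were seen, was called higher although its groups overlapped, and held 0, 290.5 and 2.36 before and 153.7, 62.5 and 259 after.

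At a mean of at least 50 the median log2 fold change of the genes that fell was -0.71, against 0.79 for those that rose. Flrt2, a membrane protein of the FLRT family that binds latrophilins and UNC5 receptors, was the most abundant of the 15 named, and went from 4249.9, 4003 and 4418 to 1706, 1644 and 1529 (log2 fold change -1.38, SE 0.09, adjusted p = 1.3e-24). Plxna3, a semaphorin receptor, fell from 348, 280.3 and 233 to 106.5, 119.6 and 121.99 (log2 fold change -1.28, SE 0.15, adjusted p = 1.7e-12). Glcci1 went from 728, 727 and 759 to 367, 314 and 291 (log2 fold change -1.19, SE 0.14, adjusted p = 3.3e-12), Fgd4, an exchange factor for the GTPase CDC42, from 659, 672 and 646 to 357, 274 and 247 (log2 fold change -1.19, SE 0.10, adjusted p = 2.1e-18), and Slc27a3, an acyl-CoA synthetase, from 134.8, 129.9 and 170.2 to 57.1, 64.6 and 66.4. Pla2g4b had the largest change (log2 fold change -1.75, SE 0.42, adjusted p = 7.7e-04) on counts of 104.7, 96.1 and 59.1 and 15.4, 33.9 and 27.3. The rest were Pcdh17, Celf5, Fam161b, Zfp189, Mroh6, Tigd5, Iglon5, Zfp128 and Nup210l, with log2 fold changes from -1.36 in Pcdh17 to -1.12 in Nup210l. Zinc-finger genes with Zfp symbols, a family chosen after the values were seen, counted 21 lower and 8 higher of 273 at a mean of at least 50, or 7.69% lower against 1.52% of all genes at that level. Their median log2 fold change was -0.09, against 0.02 for all genes at that level. Many of these genes share near-identical finger repeats, so reads may have been split among them.

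Genes that responded had fewer exons than others. At a mean of at least 50, the median exon number of the transcript with most exons (GENCODE M21, basic set) was 5.5 in the 230 that rose and 7 in those that fell, against 9 in all genes at that level, and the median span was 17138, 17102 and 22419 bases. Genes of 3 exons or fewer made up 29.6% of risers, 22.6% of fallers and 12.9% of all. These are descriptions with no test.

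Most of these genes had turned back from their 1h level by 2h. The later IL3 libraries share the same undifferentiated libraries as their start, so their levels are given side by side with no test. The 1h values are those that chose the genes, and that choice by itself favours a move back at 2h. Each time point was grown in a plate of its own, so plate and time cannot be told apart. Among the 230 risers at a mean of at least 50, the median log2 difference from the start was 0.79 at 1h, 0.07 at 2h, -0.33 at 3h, -0.49 at 4h and -0.64 at 8h. All genes at that level had medians of 0.03, -0.01, -0.02, -0.02 and -0.02. At 2h 84.3% of the 230 lay under their 1h level, a count that includes genes that had passed the start. More than 0.58 above the start lay 53 (23.0%), against 5.15% of all genes at that level. Another 18.7% lay more than 0.58 under the start, against 7.72% of all. By 8h 52.2% of the 230 lay more than 0.58 under the start, against 19.3% of all. Of the fallers 92.1% lay above their 1h level at 2h. Neither this share nor the 84.3% of the risers was taken over all genes at that level, so both lack a background. Within 0.58 of the start were then 79.9% of them, against 87.1% of all genes at that level. Their median was -0.70 at 1h, 0.07 at 2h and 0.22 at 8h.

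Single genes took several courses after the hour. Egr1 stood at 873 ± 97.4 normalized counts at 2h (mean ± SD, n = 3) and at 2699 ± 121.2 at 4h, while Egr2 was at 65.4 ± 11.4 and 57.8 ± 1.17. Fosb, one of the most abundant AP-1 genes at 1h, was at 1635 ± 103.4 at 2h and 123.6 ± 13.4 at 8h. Pim1 and Cd14 remained high, at 13270.1 ± 411 and 13874 ± 354 at 8h. Csf2rb2 and Cx3cr1 were higher still later on, at 36768 ± 821 and 1722 ± 48.5 at 8h. Among the fallers, Flrt2 passed its start at 2h (6688 ± 1001), Stat2 returned to it (956 ± 54.8), and Nab2 was lower still at 4h (1762 ± 114.7).

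**Figure D4:**
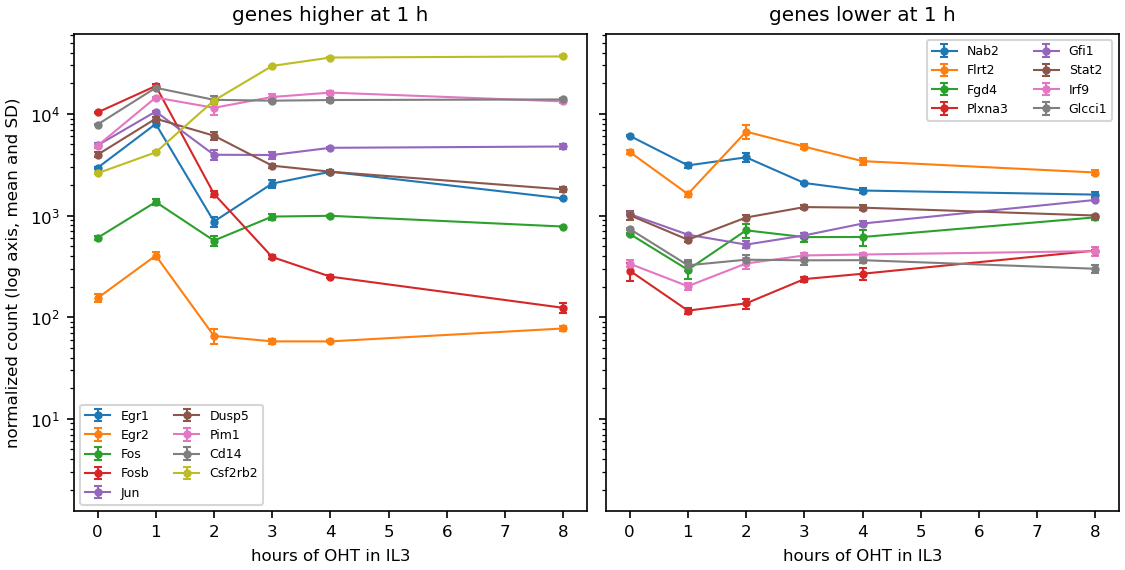
Normalized counts (log axis, mean and SD of the libraries at each time) are plotted against hours of OHT in IL3, from 0 to 8, for genes higher (left) and lower (right) at 1h. Most lines on the left peak at 1h and come down by 2h, apart from Pim1 and Csf2rb2, and most on the right have their lowest point at 1h, apart from Nab2, Gfi1 and Glcci1.

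To ask what in this hour depended on the cytokine, the same hour was taken in GCSF-treated cells, which share no library with the IL3 comparison. There 699 genes were higher (4.01%) and 354 lower (2.03%). The OHT dose was 100 nM in GCSF and 200 nM in IL3, so cytokine, pre-treatment and dose cannot be told apart. Among genes at a mean of at least 50 in the IL3 libraries, the genes higher in both made up 57.8% of the 230 in IL3 and 26.2% of the 508 in GCSF. For falls 54 were shared, 32.9% of those in IL3 and 21.4% of the 252 in GCSF. Over genes of all levels the shares were lower for rises, 34.6% of the 489 in IL3 and 24.2% of the 699 in GCSF, and 28.1% and 22.3% for falls. The difference between the 2 first hours was called for 489 genes. Of these 43.8% had the more positive log2 fold change in IL3 (1.23% of genes tested) and 275 the more negative one (1.58%). Of the 230 IL3 risers, 29 had the more positive change in IL3 by this test and 35 in GCSF. All 20 fallers at that level with a called difference had the more negative change in IL3. They include genes that rose in GCSF, such as Nab2 and Iglon5. The balance was the other way over all 489 risers, low genes included, where 88 had the more positive change in IL3 and 36 in GCSF. Of all fallers 30 had the more negative change in IL3 and 1 in GCSF. Risers and fallers were chosen by the same IL3 values that enter the difference, which favours larger changes in IL3. These balances therefore do not show how far the response depended on the cytokine.

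Many immediate-early genes started at different levels in the 2 cytokines. Undifferentiated cells in IL3 held far more Fosb, 10492, 10284 and 10230.1 normalized counts, than GCSF cells at 0h, with 41.6, 33.6 and 39.1. After OHT the values were 17926, 19210.1 and 19327 in IL3 and 4402, 5434 and 5124 in GCSF, a rise of 0.86 against 6.99 on the log2 scale (difference log2 fold change -6.13, SE 0.26, adjusted p = 4.0e-42). Atf3 rose from 61, 46 and 56.9 to 762, 856 and 849.5 in GCSF, and its difference was -3.27. Jun, Fos, Dusp5, Dusp1, Ptgs2 and Cd14 all rose in both and by more in GCSF, with differences of -1.50, -1.42, -1.98, -1.50, -1.58 and -1.71. The starting mean was lower in GCSF for 78.7% of the 230 IL3 risers, against 51.6% of all genes at that level. The part of the starting level in the differences was not tested.

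Some responses went opposite ways or differed in size. Nab2, which fell in IL3, rose in GCSF from 912, 849 and 701 to 1418, 1283 and 1231 (difference log2 fold change -1.65, SE 0.17, adjusted p = 2.6e-14). Iglon5 fell in IL3, from 1307, 1236 and 1124 to 502, 541 and 612, and rose in GCSF, from 110.9, 98.3 and 63.4 to 377, 368 and 323 (difference -3.14). Mybl1, with 212.6, 249.7 and 215.3 and then 229, 221 and 245 in GCSF, was not called there (log2 fold change 0.04, SE 0.12, adjusted p = 0.9), and the difference passed the test (log2 fold change 1.86, SE 0.18, adjusted p = 6.2e-16). Flrt2 likewise held 523, 417 and 442 and then 491, 382 and 412 in GCSF, with a difference of -1.27. Of the other genes named for a positive difference, at a mean of at least 50 in the highest of the 4 groups, 3 are given here. Vxn went from 128.2, 79.8 and 100.4 to 192.1, 286 and 201.04 in IL3 and held 46.2, 39 and 25.2 and then 20.6, 26 and 20.5 in GCSF (difference 1.79). Irgm1, an interferon-induced GTPase, went from 34, 34.8 and 42.5 to 59.3, 63.5 and 70.3 in IL3 and fell from 233, 267 and 267 to 109.3, 157.1 and 168.4 in GCSF (difference 1.62). Kctd21 was not called in IL3, with 198.9, 171.8 and 148.9 and then 222, 191.6 and 221, and fell in GCSF from 101.7, 111.6 and 121.2 to 58.8, 26 and 41.1 (difference 1.75).

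**Figure D5:**
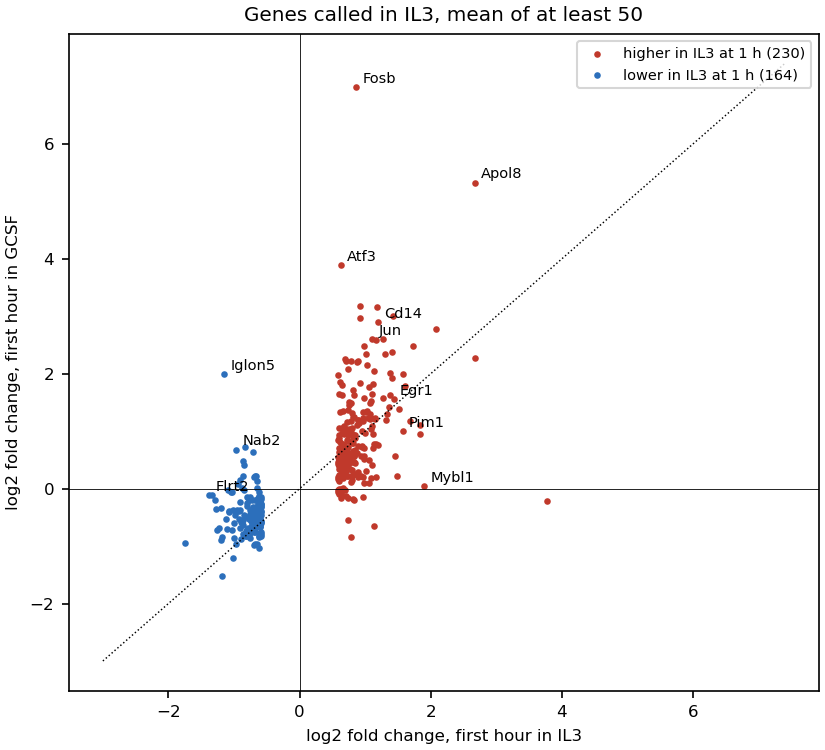
Each point is a gene called in IL3 at a mean of at least 50 (230 higher in red, the lower ones in blue), with its log2 fold change in the first hour in IL3 on the horizontal axis and in GCSF on the vertical axis. The dotted line marks equal change; Fosb, Apol8 and Atf3 lie far above it, Mybl1 under it, and Nab2 and Iglon5 in the quadrant of opposite signs.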

How the data were processed

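Polyadenylated RNA of PUER cells was sequenced; per the study's methods and the labels the authors quantified reads with Salmon on GRCm38 and deposited gene counts divided by DESeq2 size factors (a signal per gene with no further transformation). Each deposited value was a whole multiple of the smallest value of its library (100% of values, to within 6.5e-09 reads), so whole reads could be recovered. ERCC spike-ins were not used here. Genes with a value of at least 5 in any library were tested with limma 3.58.1 (R 4.3.3, trend) on log2(value + 1) in 1 fit of the libraries of 54 conditions, with the IL3 libraries of 96h and 144h left out as in the study, and with Benjamini-Hochberg adjustment. The 3 contrasts were OHT 1h against undifferentiated, the same hour in GCSF, and their difference. edgeR 4.0.16 (TMM, quasi-likelihood) and DESeq2 1.42.0 (Wald) were run on the recovered reads of 12 libraries as alternatives, beside other pseudocounts, filters, scaling, sample sets, a replicate block and each library left out.

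On simulated counts the limma fit recovered nearly all of the larger changes and fewer of those near the fold threshold. It made more wrong calls than its adjusted p allows among genes of low counts, and none at a mean of 50 or more. The simulation gave every gene the same spread beyond sampling noise and placed all changes at a mean of at least 50. Real genes differ in spread, so it does not show how many of the real calls are wrong. Because edgeR and DESeq2 shared few of limma's calls of low genes, counts are also given for genes with a mean of at least 50 over the 6 libraries. Named genes were the 15 largest rises and 15 largest falls with a mean of at least 50 in the higher group and no overlap, up to 4 members of each list, the 5 largest differences from GCSF in each direction among genes with a mean of at least 50 in the highest of the 4 groups, and genes the study names; Spi1, Esr1, Dusp7 and Gm45140 were added after their values were seen. Some genes are not reported here. The members and lists were chosen with earlier results of these data known. Replicate libraries of a group correlated at 0.983 to 0.989 and differed by more than sampling noise. P-values measure the spread between cultures of one line at the same time point, pooled over all 54 conditions fitted. They do not measure the spread of the 6 libraries alone, or that between plates or repeats of the differentiation.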

Additional observations from a re-analysis of the deposited data

Results flagged for a closer look

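The effect of the first hour of OHT differed between IL3 and GCSF, by limma's test of the difference, for 43 of the genes described above or taken up by the rule for named genes. All differences are IL3 minus GCSF on the log2 scale. Where the change was positive in IL3 and smaller than in GCSF, the differences were -2.66 for Apol8, -6.13 for Fosb, -3.91 for Egr3, -3.27 for Atf3, -1.42 for Fos, -0.91 for Maff, -1.50 for Jun, -1.98 for Dusp5, -1.50 for Dusp1, -0.70 for Phlda1, -1.03 for Nfkbia, -1.58 for Ptgs2, -1.34 for Cxcl2, -0.72 for Mcl1, -1.71 for Cd14, -0.90 for Cx3cr1, -0.96 for Per1, -0.74 for Mt2, -1.67 for Slc2a1, -1.33 for Btg1, -1.25 for Ccl3, -2.26 for Dusp10, -0.71 for Ier5, -1.40 for Jund, -0.59 for Klf6 and -0.81 for Trib1. Where the change was negative in IL3 and the difference was negative too, they were -1.27 for Flrt2, -1.08 for Plxna3, -0.86 for Glcci1, -3.14 for Iglon5, -0.75 for Zfp128, -3.40 for Enkur, -1.65 for Nab2 and -0.89 for Dusp7. The difference was positive in the remaining genes, with 1.86 for Mybl1, 1.26 for Mdk, 2.34 for Insl3, 1.79 for Vxn, 1.75 for Kctd21, 1.62 for Irgm1, 0.70 for Hes6, 0.74 for Cebpe and 1.31 for Egr4.

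Insl3 rested on 1 library: the undifferentiated libraries held 0, 30.7 and 7.09 and the OHT libraries 17.6, 24.4 and 18.5, and without replicate 1 of the undifferentiated group the difference was 1.01 and not called. Egr3 and Enkur were low in GCSF at 0h (6.47, 4.43 and 6.52, and 4.62, 0.885 and 1.86), as was Apol8 (2.77, 1.77 and 0.932). Egr4 was at 0 in all GCSF libraries and near the floor in IL3, so no size is read from its value, and edgeR did not call its difference. The difference of Zfp128 was not called by edgeR either, and those of Klf6, Maff and Apol8 lost their call when some single libraries were left out, among them a GCSF 0h library for each. The causes of these differences were not tested.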

How the results depend on the processing

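In IL3 the 770 genes called became 623 in edgeR, 546 in DESeq2, 530 with a mean of at least 10 over the libraries, 1105 with no filter, and 394 when only genes with a mean of at least 50 over the 6 libraries were counted, a choice made after seeing the data. The genes called higher went from 489 to 293 with a mean of at least 10 and to 230 at 50. For the difference from GCSF, 489 genes became 433 in DESeq2 and 460 in edgeR. The share with the more positive log2 fold change in IL3 went from 43.8% to 29.8% and 32.8%. With no filter 327 genes had the more positive log2 fold change in IL3. The 8 list members that were lower became 5 in DESeq2. Leaving out 1 library gave 665 to 764 genes called in IL3, 953 to 1058 in GCSF and 431 to 535 for the difference, with 56 to 66 list members higher in IL3 and 6 to 8 lower. The replicate block gave 772 genes called in IL3, 1057 in GCSF and 492 for the difference. Same-numbered libraries of the 2 IL3 groups had correlations of -0.28, -0.19 and -0.48 between their deviations, so the numbers do not pair the samples. Among the genes described, 20 lost their call in IL3 under at least 1 alternative, 2 gained one and 6 lost the called difference. Irf8, uncalled and near the floor, changed sign, to -0.034 in DESeq2 and -0.047 in edgeR, and ran from -0.29 to 0.29 when 1 library was left out. Jund lost its call without replicate 2 of the undifferentiated group or replicate 1 or 2 of the OHT group, and Mafk without replicate 2 of the undifferentiated group. The cause was not tested. Depth limits the low genes, since 3 reads equal 2.93 to 3.93 normalized counts in the IL3 libraries.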
